A study of Mus musculus with 4 samples.

Results

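The genes described here are 34 macrophage transcripts, covering shared markers of macrophages and monocytes, markers of resident-type and of monocyte-type cells, genes of alternative activation, lipid receptors, and the growth factor gene Csf1. They were chosen by symbol, and all 34 were present among the 18781 genes of the expression table. The libraries hold total RNA of purified mature adipocytes of C57BL/6 mice, an inbred strain, at postnatal day 30. Dermal adipocytes (dWAT), from the fat of dorsal skin, and inguinal adipocytes (sWAT), from a subcutaneous pad, had 2 libraries each, and the labels name no genetic change or treatment. In both depots cells were released with the enzymes collagenase IV and dispase II, and those that floated were collected. The labels do not say whether libraries came from separate or pooled animals, so the p-values describe the spread between libraries, which may be technical.

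Macrophages depend on signals through CSF1R, whose ligand CSF1 is made by surrounding cells, and on the transcription factor PU.1, encoded by Spi1. In fat they sit between adipocytes, where they clear dying cells and take up lipid. Resident macrophages of connective tissue typically carry the mannose receptor MRC1 (CD206), the haemoglobin scavenger receptor CD163 and the folate receptor FOLR2, whereas cells newly derived from blood monocytes carry CCR2. In mice, interleukin 4 and interleukin 13 act through STAT6 to induce the alternative activation genes Retnla and Arg1.

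Most macrophage transcripts were higher in dermal than in inguinal libraries, including all 4 resident-type markers. The monocyte receptor gene Ccr2, the alternative activation gene Retnla, the endotoxin co-receptor gene Cd14 and the growth factor gene Csf1 were among those that did not pass. Of the 34 genes, 25 were higher in dermal libraries, 0 were lower, 7 did not pass and 2, Arg1 and Cx3cr1, were below the expression filter of 1 CPM (CPM is the read count of a gene scaled to library size) in at least 2 libraries. Among all 12797 genes tested, 7.56% were called higher and 8.8% lower in dermal libraries (limma on log2(CPM + 0.5), two-sided, Benjamini-Hochberg adjusted p below 0.05). No tested macrophage gene had a negative estimate, so 0 were lower at an unadjusted p under 0.05, and edgeR and DESeq2 on recovered reads called 0 lower. The same 25 genes were called higher by edgeR, which called 7.21% of all tested genes higher, and by DESeq2, which called 6.43%. One of the 25, Trem2, passed the expression filter through its dermal values alone. The median log2 fold change, dermal over inguinal, was 1.404 over the 32 tested macrophage genes and 0.016 over all tested genes. In bulk libraries, a difference in the number of macrophages and one in RNA per macrophage cannot be told apart. The values describe floated cells that were collected, so tissue macrophage content and carry-over in collection cannot be told apart either.

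Summed over the 34 genes, macrophage reads made up 0.203% (95% Wilson interval 0.2001% to 0.205%) and 0.197% (0.194% to 0.1998%) of the dermal libraries, against 0.0762% (0.0747% to 0.0778%) and 0.0796% (0.0779% to 0.0813%) of the inguinal libraries. All intervals given here cover counting error only. The summed normalized level was 2.42 times as high in dermal libraries, and the groups did not overlap. The exact two-sided permutation test over libraries gave p = 0.333, the smallest that 2 against 2 libraries allow. Both dermal values lay above both inguinal values for 29 of the 32 tested genes, a pattern that 31.6% of all tested genes showed. The 3 genes whose values overlapped were Cd14, Retnla and Csf1.

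**Figure D1:**
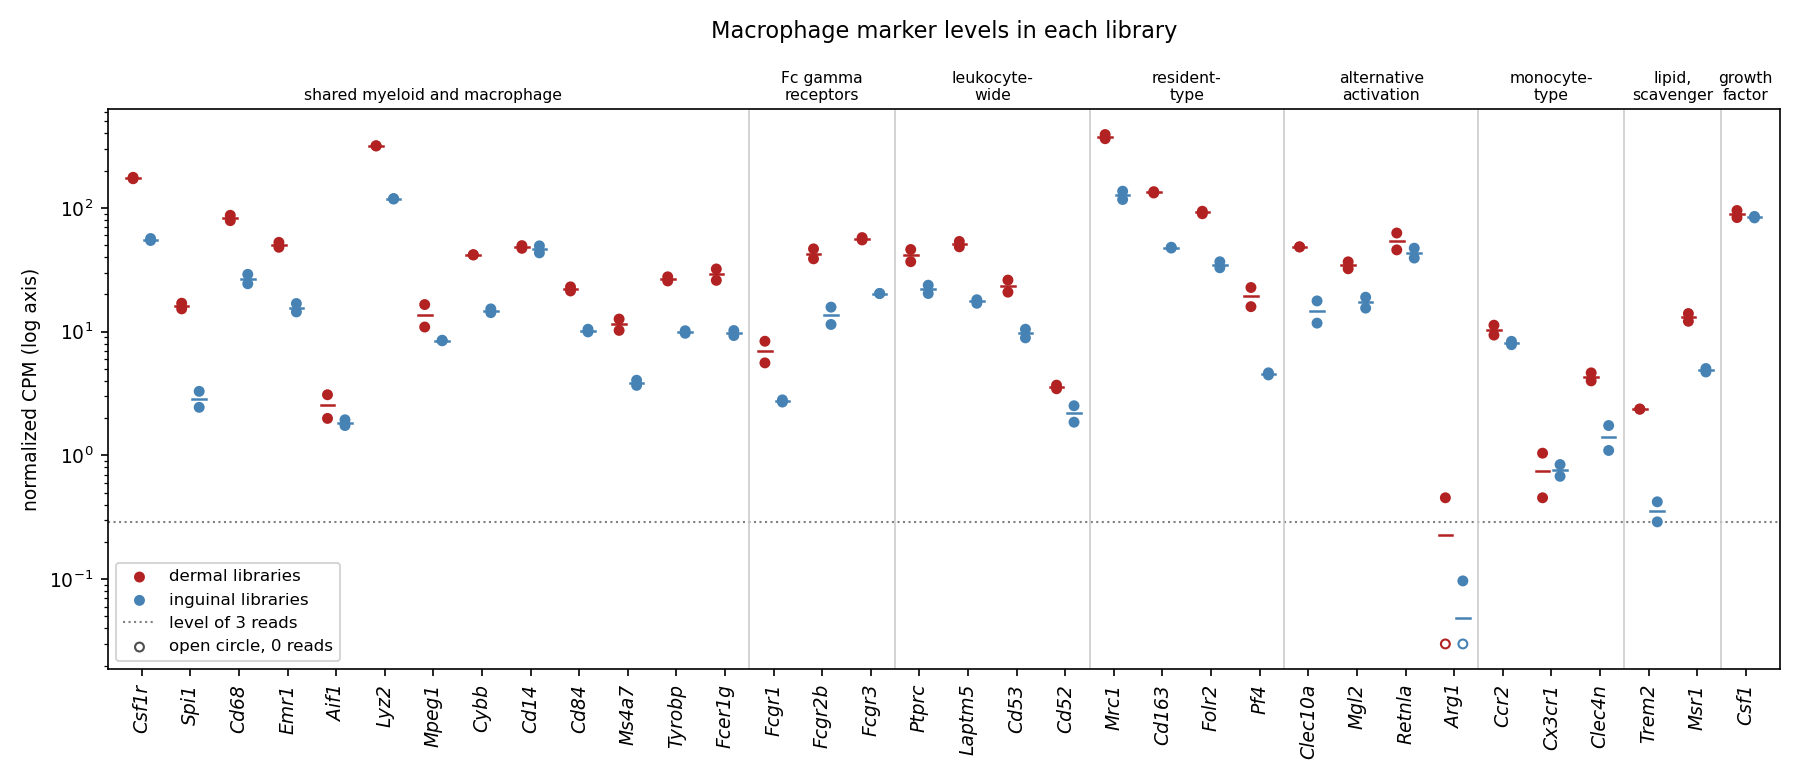
Normalized CPM (log axis) of the 34 macrophage genes in each library, grouped by role, with dermal libraries in red at the left of each gene and inguinal libraries in blue at the right. Points are libraries, short lines are means of 2, open circles stand for 0 reads and the dotted line is the level of 3 reads. Csf1r lies at 172 and 177 CPM in dermal and at 54.5 and 56.6 CPM in inguinal libraries, whereas Csf1, Cd14 and Retnla overlap between depots.

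Receptor and ligand of the macrophage growth factor axis did not move together. Csf1r, the receptor that macrophages need to survive, was at 172 and 177 CPM in dermal libraries and at 54.5 and 56.6 CPM in inguinal ones (log2 fold change 1.64, SE 0.12, adjusted p = 0.00166). Csf1, its ligand, was at 83.6 and 95.3 CPM in dermal libraries and at 83.1 and 85.4 CPM in inguinal ones. The ligand's values overlapped between depots (log2 fold change 0.083, SE 0.13, adjusted p = 0.705), and its estimate turned to -0.012 without dermal replicate 2. Il34, the other ligand of the receptor, chosen after its values were seen, was low, at 3.73 and 4.36 CPM in dermal libraries and 4.64 and 3.102 CPM in inguinal ones, and did not pass (adjusted p = 0.877). Exons of Csf1r overlap those of Hmgxb3 on the opposite strand, and no source used here says whether reads were counted by strand.

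Among the other shared macrophage markers, Spi1 had the largest log2 fold change of the 32 tested genes. It was at 15.3 and 16.98 CPM in dermal libraries and at 2.45 and 3.296 CPM in inguinal ones (log2 fold change 2.31, SE 0.22, adjusted p = 0.00277). As a share of Csf1r in the same library, Spi1 stood at 8.88% and 9.61% in dermal and at 4.49% and 5.82% in inguinal libraries. The log2 difference was 0.67 (SE 0.21, limma unadjusted p = 0.0183, adjusted p = 0.0199). Spi1 was picked here for its large fold change, so this p-value is not a separate test, and the adjustment hardly changed it. Emr1 (now Adgre1), which encodes the surface antigen F4/80, was at 52.7 and 48.1 CPM in dermal libraries and at 16.9 and 14.4 CPM in inguinal ones. The lysosomal glycoprotein gene Cd68 was at 87.2 and 78.9 CPM in dermal libraries and at 24.4 and 29.1 CPM in inguinal ones. Both were higher in dermal libraries, with log2 fold changes of 1.66 (SE 0.16) and 1.62 (SE 0.15), near that of Csf1r.

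Lyz2, the lysozyme gene of macrophages and neutrophils, was the most abundant of the 34 transcripts per kilobase of exon in both depots. It was at 317 and 318 CPM in dermal libraries and at 119 and 118 CPM in inguinal ones (log2 fold change 1.42, SE 0.12), although reads could have been shared with its close copy Lyz1. Cybb, the catalytic subunit of the phagocyte NADPH oxidase, was at 41.96 and 41.6 CPM in dermal libraries and at 15.3 and 14.3 CPM in inguinal ones. In both genes the libraries of a depot lay close together and the depots far apart. Cd84, a self-binding receptor of the SLAM family, was at 23.03 and 21.3 CPM in dermal libraries and at 9.96 and 10.5 CPM in inguinal ones. Ms4a7, a membrane protein gene of mature macrophages, was at 12.7 and 10.2 CPM in dermal libraries and at 4.05 and 3.68 CPM in inguinal ones. Cybb, Cd84 and Ms4a7 were all higher in dermal libraries, with log2 fold changes of 1.47, 1.08 and 1.45, but without dermal replicate 1 Cd84 (adjusted p = 0.0639) and Ms4a7 (0.0532) no longer passed in limma.

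Of the 13 shared markers, 3 did not pass. Cd14 was at 49.6 and 47.1 CPM in dermal libraries and at 49.4 and 43.3 CPM in inguinal ones. Its values overlapped (log2 fold change 0.063, SE 0.14, adjusted p = 0.792), and the estimate turned to -0.030 without inguinal replicate 2. As a share of Csf1r, Cd14 stood at 28.8% and 26.7% in dermal and at 90.6% and 76.5% in inguinal libraries (log2 difference -1.58, SE 0.15, limma adjusted p = 8.96e-05). Cd14 was picked here for its small fold change and Csf1r was higher in dermal libraries, so this p-value is not a separate test. Mpeg1, which encodes a pore-forming protein of macrophages, was at 16.6 and 10.9 CPM in dermal libraries and at 8.44 and 8.53 CPM in inguinal ones (adjusted p = 0.123). Aif1, which encodes the calcium-binding protein IBA1, was at 3.09 and 1.99 CPM in dermal libraries and at 1.94 and 1.75 CPM in inguinal ones (adjusted p = 0.465). In Mpeg1 and Aif1 the dermal values lay above the inguinal ones, and the dermal libraries differed more from each other than the inguinal libraries did.

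The 3 receptors for immunoglobulin G and both signalling adaptors among the 34 genes were higher in dermal libraries. Fcer1g and Tyrobp encode short adaptor chains with an activating ITAM motif, through which Fc receptors and TREM2 signal. Fcer1g was at 32.1 and 25.99 CPM in dermal libraries and at 10.2 and 9.31 CPM in inguinal ones (log2 fold change 1.52, SE 0.18). Tyrobp was at 27.8 and 25.7 CPM in dermal libraries and at 9.71 and 10.2 CPM in inguinal ones (log2 fold change 1.38, SE 0.16). Neither adaptor overlapped between depots. The activating receptor gene Fcgr3 was at 57.6 and 55.1 CPM in dermal libraries and at 20.4 and 20.4 CPM in inguinal ones (log2 fold change 1.45). Fcgr2b, the inhibitory receptor, was at 46.7 and 38.8 CPM in dermal libraries and at 15.8 and 11.4 CPM in inguinal ones (log2 fold change 1.63). The high-affinity receptor gene Fcgr1 was at 8.37 and 5.597 CPM in dermal libraries and at 2.702 and 2.81 CPM in inguinal ones (log2 fold change 1.18, adjusted p = 0.0313). Fcgr1 did not pass without dermal replicate 1 (limma adjusted p = 0.198) or with no filter on low values (0.0645). Fcgr2b and Fcgr3 are alike in sequence, and Fcgr2b overlaps Gm38204 on the opposite strand, so their reads could have been shared.

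Of 14 tested kinases, phosphatases, adaptors and inhibitory receptors that act with such receptors, 9 were higher in dermal libraries, 0 were lower and 5 did not pass. The median of the 14 log2 fold changes was 1.12. None was lower at an unadjusted p under 0.05 in limma, edgeR or DESeq2, but 1 was called lower without inguinal replicate 1 and with the replicate block. The number higher, which includes Card9, a gene that passed the filter through its dermal values alone, was 5 without dermal replicate 1 and 5 without dermal replicate 2. Sirpa, the inhibitory receptor that recognises CD47, was at 107 and 115 CPM in dermal libraries and at 42.6 and 50.02 CPM in inguinal ones (adjusted p = 0.00362). Lcp2, which encodes the adaptor SLP-76, was at 29.1 and 27.6 CPM in dermal libraries and at 9.88 and 7.76 CPM in inguinal ones (adjusted p = 0.00368). Lyn, a Src family kinase also found outside leukocytes, was at 34.2 and 34.5 CPM in dermal libraries and at 38.3 and 56.5 CPM in inguinal ones and did not pass (adjusted p = 0.194).

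Of the 4 leukocyte-wide genes, 3 were higher in dermal libraries. Laptm5, a lysosomal membrane protein gene of blood cells, was at 48.5 and 53.6 CPM in dermal libraries and at 16.97 and 18.1 CPM in inguinal ones (log2 fold change 1.51). The tetraspanin gene Cd53 was at 26.1 and 20.9 CPM in dermal libraries and at 10.5 and 8.92 CPM in inguinal ones (log2 fold change 1.23). Ptprc, which encodes the leukocyte phosphatase CD45, was at 46.2 and 36.8 CPM in dermal libraries and at 20.4 and 23.8 CPM in inguinal ones (log2 fold change 0.89, adjusted p = 0.0207). Ptprc had the smallest log2 fold change of the 25 genes that passed, and neither it (limma adjusted p = 0.135) nor Cd53 (0.0612) passed without dermal replicate 1. Cd52, a small surface glycoprotein gene, was at 3.46 and 3.70 CPM in dermal libraries and at 1.86 and 2.52 CPM in inguinal ones and did not pass (adjusted p = 0.169).

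**Figure D2:**
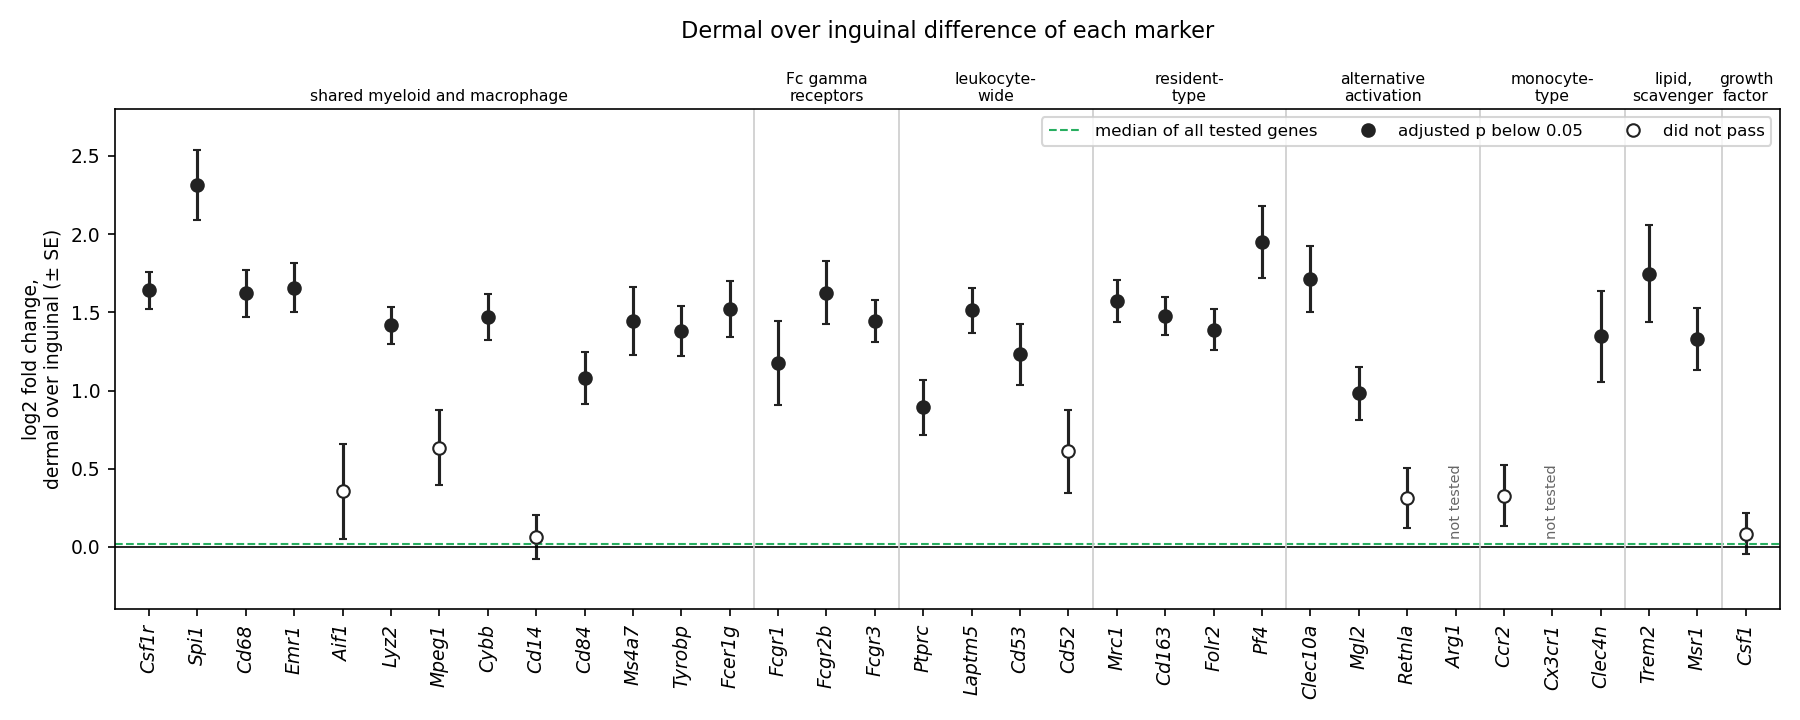
Log2 fold change, dermal over inguinal, with its standard error from limma for each tested macrophage gene, grouped by role. Filled points passed at an adjusted p below 0.05 and the dashed line is the median of all tested genes, 0.016. Spi1 is highest at 2.31, the 4 resident-type genes lie between 1.39 and 1.95, and Cd14 and Csf1 lie near 0.

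All 4 resident-type markers were higher in dermal libraries, with a median log2 fold change of 1.52. Mrc1, the mannose receptor gene, was at 392 and 363 CPM in dermal libraries and at 137 and 117 CPM in inguinal ones (log2 fold change 1.57, SE 0.14, adjusted p = 0.00209). Cd163 was at 132 and 135 CPM in dermal libraries and at 48.1 and 47.4 CPM in inguinal ones (log2 fold change 1.48, SE 0.12, adjusted p = 0.00182). Folr2 was at 94.03 and 89.7 CPM in dermal libraries and at 32.8 and 36.7 CPM in inguinal ones (log2 fold change 1.39, SE 0.13, adjusted p = 0.00275). For these 3 receptors the libraries of a depot lay close together and the depots did not overlap. Pf4, which encodes the chemokine CXCL4 of platelets and some macrophages, was at 22.8 and 15.9 CPM in dermal libraries and at 4.48 and 4.65 CPM in inguinal ones (log2 fold change 1.95, SE 0.23, adjusted p = 0.00423).

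In a wider resident-type list, 13 of 17 tested genes were higher in dermal libraries, 0 were lower and 4 did not pass, with a median log2 fold change of 1.64. None was lower at an unadjusted p under 0.05 in limma, and edgeR and DESeq2 likewise called 13 higher and 0 lower. Cbr2, a carbonyl reductase gene found in resident macrophages of mouse connective tissue, was at 93.9 and 88.4 CPM in dermal libraries and at 25.7 and 21.7 CPM in inguinal ones (adjusted p = 0.00166). C1qc, a chain of the complement initiator C1q, was at 139 and 131 CPM in dermal libraries and at 34.1 and 27.1 CPM in inguinal ones (adjusted p = 0.00166). Both genes were separated between depots by far more than between libraries. Lyve1 and Timd4, surface receptors of resident macrophages that were named after their values were seen, had log2 fold changes of 1.46 (SE 0.33) and 1.45 (SE 0.18), and Lyve1 also marks lymphatic endothelium. The most abundant genes of the list, Sepp1 (selenoprotein P) and Igf1, are made by many cell types and did not pass (adjusted p = 0.385 and 0.484). Mertk and Vsig4, also named after their values were seen, did not pass either. Mertk values overlapped between depots (log2 fold change 0.071, SE 0.17, adjusted p = 0.811), and Vsig4 was low (0.88, SE 0.34, adjusted p = 0.130).

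The alternative activation genes were uneven. Clec10a and Mgl2 encode galactose-type lectins and lie beside each other on chromosome 11. Clec10a was at 48.4 and 48.5 CPM in dermal libraries and at 17.7 and 11.7 CPM in inguinal ones (log2 fold change 1.71, SE 0.21, adjusted p = 0.005). Mgl2 was at 36.7 and 32.3 CPM in dermal libraries and at 19.0 and 15.5 CPM in inguinal ones (log2 fold change 0.98, SE 0.17, adjusted p = 0.0148), and did not pass without dermal replicate 1 (limma adjusted p = 0.0889). Reads of such close paralogues could have been shared. Retnla, which encodes the secreted protein RELM-alpha, was at 62.7 and 45.8 CPM in dermal libraries and at 47.3 and 39.4 CPM in inguinal ones. Its values overlapped between depots (log2 fold change 0.31, SE 0.19, adjusted p = 0.314). Arg1, the arginase of alternatively activated macrophages, had 5 and 0 reads in dermal libraries and 0 and 1 reads in inguinal ones. Their normalized ratio came to 5.15 with a 95% counting interval of 0.576 to 243. A difference in Arg1 was not detectable at this depth.

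Levels of different genes were compared per kilobase of exon annotated in GENCODE M21. Retnla was second only to Lyz2 among the 34 transcripts in both depots, with a mean of 90.6 CPM per kilobase in dermal and 72.3 CPM per kilobase in inguinal libraries. Lyz2 averaged 241 CPM per kilobase in dermal and 90.1 CPM per kilobase in inguinal libraries. Mrc1 averaged 70.2 CPM per kilobase in dermal and 23.6 CPM per kilobase in inguinal libraries. Cd14 ranked at place 11 in dermal and place 3 in inguinal libraries, and Csf1 at place 16 in dermal and place 7 in inguinal libraries.

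Monocyte-type genes were low in all libraries. Ccr2, the receptor that draws monocytes into tissue, was at 11.3 and 9.39 CPM in dermal libraries and at 8.36 and 7.85 CPM in inguinal ones (log2 fold change 0.33, SE 0.20, adjusted p = 0.301). The dermal values lay above the inguinal ones without passing the test. Cx3cr1, the fractalkine receptor of patrolling monocytes and some tissue macrophages, had 5 and 11 reads in dermal libraries and 10 and 7 reads in inguinal ones, a ratio of normalized reads of 0.969 with a 95% counting interval of 0.458 to 2.04. Clec4n, which encodes the fungal receptor dectin-2, was at 4.01 and 4.65 CPM in dermal libraries and at 1.098 and 1.75 CPM in inguinal ones (log2 fold change 1.35, SE 0.29, adjusted p = 0.0269). Clec4n did not pass without dermal replicate 1 (limma adjusted p = 0.0839), without dermal replicate 2 (0.131) or with no filter (0.0532).

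In a wider monocyte list, 2 of 9 tested genes were higher in dermal libraries, 1 was lower and 6 did not pass. The median of the 9 log2 fold changes was 0.21. The number higher was 1 without dermal replicate 2, and the number lower was 2 without inguinal replicate 1 and with the replicate block. Itgam, the integrin chain CD11b that macrophages also carry, was at 46.3 and 36.8 CPM in dermal libraries and at 15.1 and 12.5 CPM in inguinal ones (adjusted p = 0.00448). Vcan, a matrix proteoglycan gene that fibroblasts also express, was at 48.9 and 85.4 CPM in dermal libraries and at 26.2 and 31.7 CPM in inguinal ones (adjusted p = 0.0339). The gene that was lower in dermal libraries was Nr4a1, an immediate early transcription factor gene, at 40.96 and 62.2 CPM in dermal libraries and 162 and 211 CPM in inguinal ones (adjusted p = 0.00493). Ly6c2, the surface marker of inflammatory monocytes, was below the filter, at 0.728 and 0.1897 CPM in dermal libraries and 0.591 and 0.388 CPM in inguinal ones.

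Both lipid and scavenger receptors were higher in dermal libraries. Msr1, scavenger receptor A, was at 14.02 and 12.1 CPM in dermal libraries and at 4.73 and 5.04 CPM in inguinal ones (log2 fold change 1.33, SE 0.20, adjusted p = 0.00868), and did not pass without dermal replicate 1 (limma adjusted p = 0.0548). Trem2, a lipid-sensing receptor that signals through Tyrobp, had 26 and 25 reads in dermal libraries and 5 and 3 reads in inguinal ones. Their normalized ratio came to 6.56 with a 95% counting interval of 3.09 to 16.01. The limma call (adjusted p = 0.0151) was lost without dermal replicate 1 (0.065) and without dermal replicate 2 (0.067). Of 14 tested genes linked to lipid-associated macrophages, 0 were higher and 0 lower in dermal libraries by limma, against 3 higher and 2 lower at an unadjusted p under 0.05, and DESeq2 called 0 higher and 2 lower where edgeR called 0 either way. Without inguinal replicate 1 limma called 2 higher, without inguinal replicate 2 it called 1 higher and 2 lower, and with the replicate block 3 higher and 2 lower. The most abundant of them, Apoe and the cathepsin gene Ctsd, are expressed by many cell types and had log2 fold changes of 0.44 (adjusted p = 0.187) and 0.26 (adjusted p = 0.489).

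To ask which macrophage genes moved by more or less than the shared markers, each gene was set against the mean log2 level of the 13 shared markers of the same library. That mean was higher by 1.28 in dermal libraries. On this scale 0.68% of all tested genes were higher and 86.9% were lower in dermal libraries, with a median of -1.26. With so many genes called, the adjustment raised p-values little, as for Pf4 from 0.0204 to 0.0244 in limma. Of the 15 tested macrophage genes outside the shared and leukocyte-wide markers, 1 was higher, 3 were lower and 11 did not pass. Mrc1 (log2 difference 0.30, SE 0.15), Cd163 (0.20, SE 0.15) and Folr2 (0.11, SE 0.16) were among those that did not pass. With the mean of the leukocyte-wide markers as the denominator, Mrc1 (0.51, limma adjusted p = 0.022), Cd163 (0.41, 0.0351), Clec10a (0.65, 0.0315) and Fcgr2b (0.56, 0.0417) were higher in dermal libraries, and Folr2 (0.33, 0.0741) did not pass.

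Csf1 (log2 difference -1.19, SE 0.17, adjusted p = 0.000269), Retnla (-0.97, SE 0.18, adjusted p = 0.00113) and Ccr2 (-0.95, SE 0.22, adjusted p = 0.00374) were lower in dermal libraries relative to the shared markers in limma. These 3 calls held with each other denominator and pseudocount, with the replicate block and without each library. Retnla stood at 36.4% and 25.9% of Csf1r in dermal libraries and at 86.7% and 69.5% in inguinal ones. Ccr2 stood at 6.56% and 5.31% of Csf1r in dermal libraries and at 15.3% and 13.9% in inguinal ones. In neither gene did the shares overlap between depots. Mgl2 was lower relative to Csf1r (-0.66, limma adjusted p = 0.0114) but did not pass relative to the shared markers (-0.30, 0.163).

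Pf4 was the 1 gene higher relative to the shared markers (log2 difference 0.67, SE 0.23, limma adjusted p = 0.0244). It did not pass with Csf1r as the denominator (0.31, adjusted p = 0.238) or with the median of the shared markers (0.51, adjusted p = 0.123). Leaving out dermal replicate 1 gave an adjusted p of 0.186, and leaving out inguinal replicate 1 or 2 gave 0.0728 or 0.0558.

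**Figure D3:**
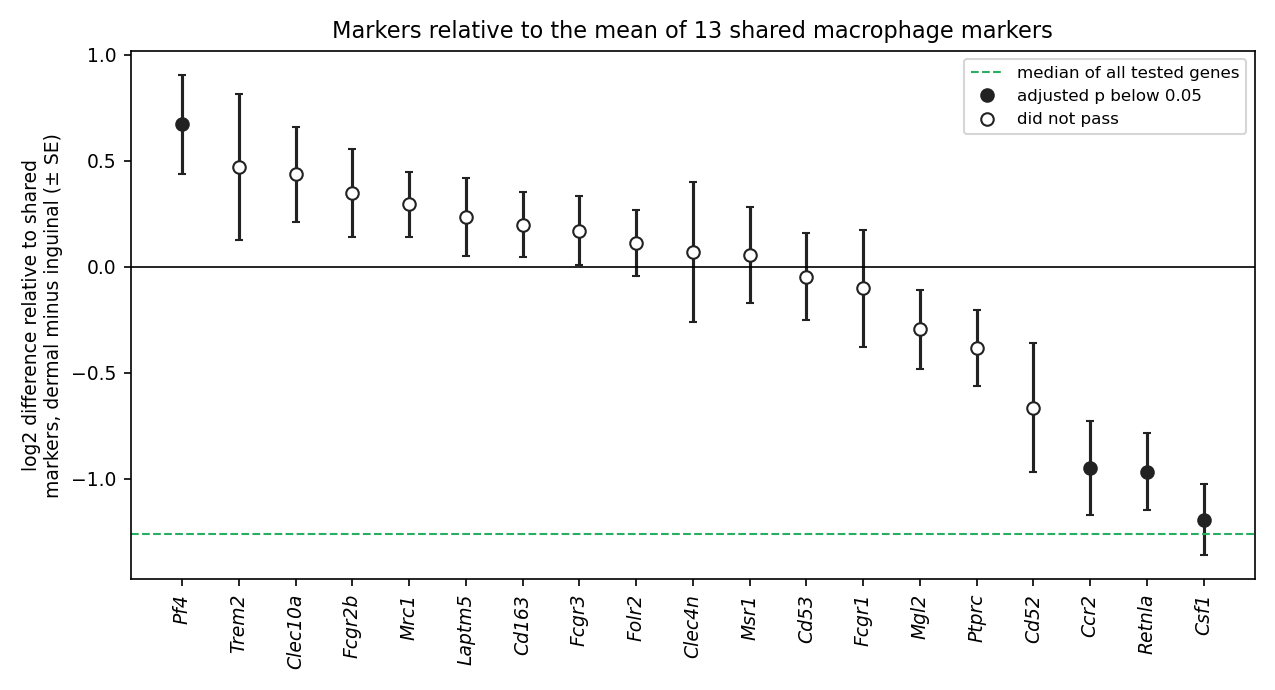
Log2 difference, dermal minus inguinal, of 19 macrophage genes relative to the mean log2 level of the 13 shared markers of the same library, with standard errors from limma. Filled points passed at an adjusted p below 0.05. Ccr2, Retnla and Csf1 lie closest to the median of all tested genes (dashed line, -1.26), and Pf4 is the filled point above 0.

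**Figure D4:**
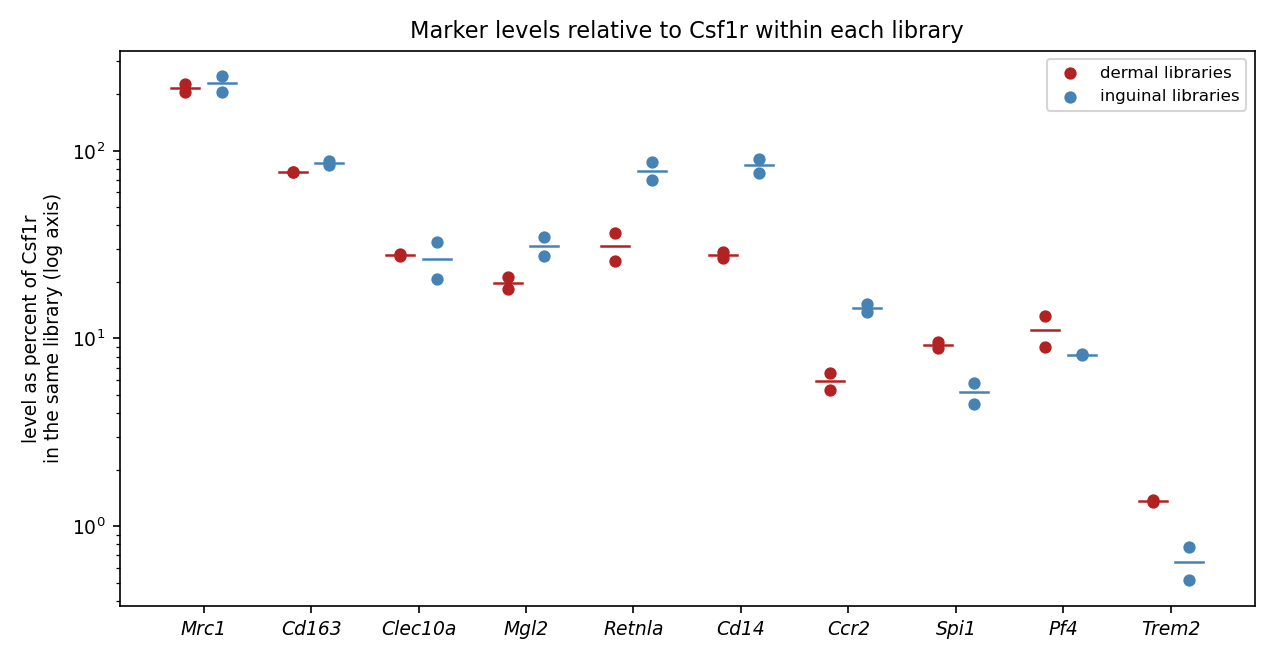
Level of 10 macrophage genes as a percent of Csf1r in the same library (log axis), with dermal libraries in red at the left and inguinal libraries in blue at the right of each gene, and lines at the means of 2. Retnla, Cd14 and Ccr2 have lower shares in both dermal than in both inguinal libraries, and Spi1, Pf4 and Trem2 have higher ones.

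The 250 bases before annotated gene starts, from RefSeq on GRCm38.p6, were read for 24 of the 34 genes. The motif GAGGAA, the core of sites bound by PU.1, was searched on both strands, where it reads GAGGAA or TTCCTC. It was present for 12 of the 24 genes and in 13 of their 28 windows (46.4%), and in 23.3% of all 32851 windows of that length. The 13 include overlapping windows of Fcgr3. The STAT6-type motif, TTC and GAA spaced by 4 bases, reads the same on both strands. It was present for 3 genes, Cd53, Ms4a7 and Retnla (10.7% of windows), and in 5.85% of all windows. The windows shown are of the abundant resident-type gene Mrc1 (chr2:14229164-14229413), of Pf4 (chr5:90772185-90772434) and Trem2 (chr17:48346151-48346400), which were higher in dermal libraries, and of Retnla (chr16:48842359-48842608) and Ccr2 (chr9:124101933-124102182), which did not pass. All 5 lie on the plus strand and are written 5′ to 3′, with motif matches in capitals.
Mrc1: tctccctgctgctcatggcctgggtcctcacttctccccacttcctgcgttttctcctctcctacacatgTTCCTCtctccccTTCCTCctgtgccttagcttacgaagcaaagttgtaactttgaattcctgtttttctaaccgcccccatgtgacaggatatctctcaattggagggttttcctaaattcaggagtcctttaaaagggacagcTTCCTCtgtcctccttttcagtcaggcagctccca
Pf4: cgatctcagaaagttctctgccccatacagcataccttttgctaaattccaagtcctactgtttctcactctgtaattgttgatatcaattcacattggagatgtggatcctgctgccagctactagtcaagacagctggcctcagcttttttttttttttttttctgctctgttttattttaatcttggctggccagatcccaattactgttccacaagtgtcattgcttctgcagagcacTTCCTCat
Trem2: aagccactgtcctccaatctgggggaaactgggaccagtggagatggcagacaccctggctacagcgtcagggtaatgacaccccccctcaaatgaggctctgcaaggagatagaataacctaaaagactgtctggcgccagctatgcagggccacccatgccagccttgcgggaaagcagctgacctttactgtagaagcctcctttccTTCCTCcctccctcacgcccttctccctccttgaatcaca
Retnla: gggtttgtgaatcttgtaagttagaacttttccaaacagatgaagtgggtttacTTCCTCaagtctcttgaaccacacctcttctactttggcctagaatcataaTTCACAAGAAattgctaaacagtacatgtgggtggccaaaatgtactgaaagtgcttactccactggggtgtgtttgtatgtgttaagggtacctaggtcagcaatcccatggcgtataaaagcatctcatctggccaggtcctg
Ccr2: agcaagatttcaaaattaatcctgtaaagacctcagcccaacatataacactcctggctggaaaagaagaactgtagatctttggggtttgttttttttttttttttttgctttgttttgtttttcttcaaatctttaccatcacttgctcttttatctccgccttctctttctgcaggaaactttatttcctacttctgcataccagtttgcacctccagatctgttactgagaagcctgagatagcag
Mrc1 held 3 matches to the PU.1 core, Pf4, Trem2 and Retnla held 1 each, and Retnla also held the STAT6-type match, whereas Ccr2 held neither. Among windows not shown, those of Cd163, Folr2 and Lyz2, which were higher in dermal libraries, held 0 matches to the PU.1 core. Aif1, which did not pass, held 1, so the windows shown do not stand for all genes. A match describes letters in these windows, and binding was not measured.

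Of 15 other transcription factor genes active in macrophages, 5 were higher in dermal libraries, 1 was lower and 9 did not pass. Without dermal replicate 2 only 1 was called higher, and with the replicate block 4 were called lower. Bach1, a haem-regulated repressor, was at 99.9 and 99.5 CPM in dermal libraries and at 253 and 263 CPM in inguinal ones (adjusted p = 0.00203). Bach1 was thus lower in dermal libraries, with no overlap. Zeb2, a zinc finger factor gene, was higher (log2 fold change 0.60, adjusted p = 0.038), and Pparg, also a main adipocyte factor, did not pass (0.021, adjusted p = 0.952).

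Classical activation genes split, with 5 of 12 higher in dermal libraries, 5 lower and 2 not passing. Those higher were Tnf, Il1b, Il1a, Cd86 and Irf5, named after their values were seen, and those lower were Cxcl9, Cxcl10, Il6, Socs3 and Nos2, the last also named after its values were seen. Il1a passed the expression filter through its dermal values alone. Tnf, an inflammatory cytokine gene of macrophages, was at 64.9 and 64.8 CPM in dermal libraries and at 12.3 and 13.9 CPM in inguinal ones (log2 fold change 2.27). Il6, which stromal cells also make, was at 16.9 and 18.02 CPM in dermal libraries and at 127 and 122 CPM in inguinal ones (log2 fold change -2.795). The interferon-induced chemokine gene Cxcl9 was at 14.5 and 16.3 CPM in dermal libraries and at 305 and 311 CPM in inguinal ones (log2 fold change -4.28). Tnf was therefore higher and Il6 and Cxcl9 lower in dermal libraries, with no overlap.

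Of 12 further genes linked to alternative activation, 3 were higher in dermal libraries, 3 lower and 6 did not pass. Those lower were Tgm2, Klf4 and Il4ra, the interleukin 4 receptor gene. Their log2 fold changes were -0.64, -1.43 and -0.87 (limma adjusted p = 0.0199, 0.0126 and 0.018). Klf4 and Il4ra were named after their values were seen. Il10, an anti-inflammatory cytokine gene, was at 29.1 and 27.4 CPM in dermal libraries and at 3.21 and 2.52 CPM in inguinal ones (log2 fold change 3.103, SE 0.20, adjusted p = 0.0014). Il1rn, which encodes the interleukin 1 receptor antagonist, was at 19.8 and 20.02 CPM in dermal libraries and at 5.07 and 5.53 CPM in inguinal ones (log2 fold change 1.82, SE 0.18, adjusted p = 0.00289). Neither gene overlapped between depots. The number called lower was 1 without dermal replicate 2, 5 without inguinal replicate 1 and 5 with the replicate block, where 5 were called higher.

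Of 14 tested colony stimulating and recruiting factors and receptors, 6 were higher in dermal libraries, 2 lower and 6 did not pass. Without dermal replicate 2 the number higher was 3. The chemokine genes Ccl3 and Ccl4 had log2 fold changes of 2.905 (SE 0.15) and 4.07 (SE 0.20). Ccl2, the main ligand of CCR2, was at 142 and 127 CPM in dermal libraries and at 112 and 112 CPM in inguinal ones (adjusted p = 0.205). Its relative Ccl7 was at 106 and 90.1 CPM in dermal libraries and at 108 and 80.5 CPM in inguinal ones (adjusted p = 0.843). Neither these ligands nor their receptor gene Ccr2 passed.

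**Figure D5:**
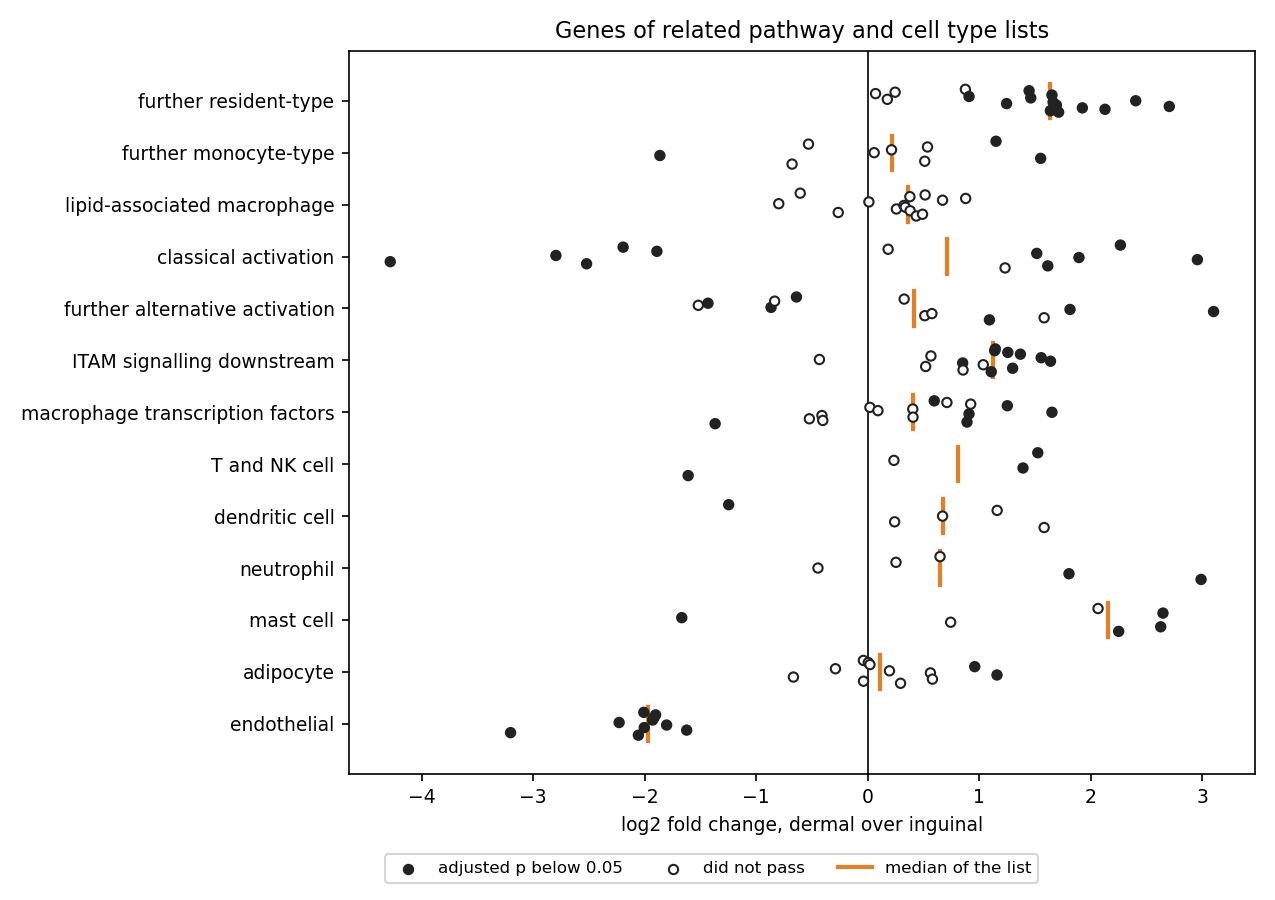
Log2 fold change, dermal over inguinal, of the tested genes of 13 related lists, with 1 point per gene, filled where the adjusted p was below 0.05, and the list median as an orange bar. The further resident-type genes have a median of 1.64, the further monocyte-type genes 0.21, and the 10 endothelial genes all lie below 0.

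Markers of other leukocytes are given by their summed levels, since calls within these short lists changed with single libraries or were set by the filter. The 8 B cell genes summed to 0.728 and 0.854 CPM in dermal libraries and 2.87 and 5.04 CPM in inguinal ones, and none passed the filter. Cd3e, a gene of the T cell receptor complex, was at 0 and 0.0949 CPM in dermal libraries and at 0.169 and 0.679 CPM in inguinal ones. Both dermal values lay below both inguinal values in the B cell sum and in Cd3e, which rests on 0 and 1 dermal and 2 and 7 inguinal reads. The T and NK cell genes summed the other way, to 32.3 and 51.3 CPM in dermal libraries and 18.8 and 22.3 CPM in inguinal ones. Thy1 made up most of that sum, at 26.9 and 44.7 CPM in dermal libraries and 11.5 and 11.9 CPM in inguinal ones. Cd4 went the same way, at 2.28 and 3.23 CPM in dermal libraries and 0.591 and 0.873 CPM in inguinal ones. Cd247 went the other way, at 0.455 and 0.569 CPM in dermal libraries and 1.94 and 3.39 CPM in inguinal ones. The T and NK cell sum thus does not stand for the list. Of 15 T and NK cell genes 4 passed the filter, and of 11 neutrophil genes 5, without the defining gene S100a9. The neutrophil genes summed to 11.9 and 19.3 CPM in dermal libraries and 6.84 and 6.204 CPM in inguinal ones. Csf3r and Camp had the highest dermal means among them. Csf3r was at 4.82 and 7.305 CPM in dermal libraries and at 1.013 and 1.75 CPM in inguinal ones. Camp was at 2.28 and 7.12 CPM in dermal libraries and at 0.169 and 0 CPM in inguinal ones, so it passed the expression filter through its dermal values alone. The other 3 tested neutrophil genes did not pass. S100a9 went the other way, at 0.182 and 0 CPM in dermal libraries and 0.591 and 0.291 CPM in inguinal ones. The dendritic cell genes summed to 21.03 and 17.6 CPM in dermal libraries and 22.5 and 24.2 CPM in inguinal ones. The MHC class II genes summed to 240.4 and 253 CPM in dermal libraries and 135 and 172 CPM in inguinal ones. Both dermal sums of the neutrophil and MHC class II genes lay above both inguinal sums, and those of the dendritic cell genes lay below. The dendritic cell gene of highest mean, Zbtb46, was at 5.55 and 7.21 CPM in dermal libraries and 14.5 and 16.97 CPM in inguinal ones. Cd209a went the other way, at 6.74 and 2.94 CPM in dermal libraries and 1.52 and 0.873 CPM in inguinal ones. The median log2 fold change of the 5 tested dendritic cell genes was 0.67, so their sum does not stand for the list.

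Markers of cells other than leukocytes and of mast cells also moved with depot. The mast cell genes summed to 73.6 and 220.2 CPM in dermal libraries and 44.8 and 53.3 CPM in inguinal ones, so dermal replicate 2 stood apart from dermal replicate 1. The keratinocyte genes summed to 82.5 and 51.2 CPM in dermal libraries and 23.9 and 15.9 CPM in inguinal ones. All 10 endothelial genes were lower in dermal libraries, summing to 409 and 469 CPM in dermal libraries and 1484 and 2323 CPM in inguinal ones. Both dermal sums of mast cell and keratinocyte genes lay above both inguinal sums. Of the 6 tested mast cell genes, 3 were higher in dermal libraries, 1 was lower and 2 did not pass, so the sum does not stand for each gene. These calls changed when dermal replicate 1 was left out. The gene that was lower, Kit, named after its values were seen, was at 4.28 and 10.6 CPM in dermal libraries and 27.1 and 18.9 CPM in inguinal ones. The 12 adipocyte genes had a median log2 fold change of 0.11 and the 10 fibroblast genes one of 0.37. The part of other cells in the differences of the macrophage genes was not tested.

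Assigned reads numbered 10127125 to 10794480 in dermal and 10165094 to 12730013 in inguinal libraries, and 3 reads equalled 0.253 to 0.291 CPM. The depots separated along the first principal component of the tested genes (76.4% of variance), and along the second (17.7%) replicate 1 of each depot lay on one side and replicate 2 on the other. Without dermal replicate 1, 16 macrophage genes were called higher in place of 25, with Cd53, Cd84, Clec4n, Fcgr1, Mgl2, Ms4a7, Msr1, Ptprc and Trem2 lost, and none of these 9 estimates changed sign.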

How the data were processed

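Purified dermal and inguinal adipocytes gave 2 RNA-seq libraries each, grouped by sample title. The signal column of each library, as the authors deposited it, holds gene-level CPM scaled by library size and a further factor. The submitters' processing notes list TopHat2 2.0.12, Picard 1.127, featureCounts of Subread 1.4.6, edgeR and the genome mm10, with no roles. Dividing by the worth of 1 read gave whole numbers (tolerance 0.001) for 100% of values, so reads were recovered.

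The expression filter kept genes reaching 1 CPM in at least 2 libraries. Fits on log2(CPM + 0.5) were made by limma 3.58.1 (R 4.3.3), using an intensity trend and no replicate block, with Benjamini-Hochberg adjustment over all genes kept. This scale understates changes of low genes. Alternatives were edgeR 4.0.16 and DESeq2 1.42.0 on the recovered reads, quantile normalization, pseudocounts of 0.1 and 1, filters of none and 5 CPM, no trend, each library left out, and a replicate block. A second fit subtracted the mean log2 level of 13 shared markers, with the leukocyte-wide markers or Csf1r as alternatives, and their median as one chosen after seeing the data. Gene positions and exon lengths came from GENCODE M21 on GRCm38.

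All 34 genes are named. From other lists, the text may name the 2 tested genes of smallest adjusted p, the 2 of highest mean, and genes under the filter. The members and lists were chosen with earlier results of these data known.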

Additional observations from a re-analysis of the deposited data

How the results depend on the processing

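No macrophage gene was called lower in dermal libraries under any alternative run, and 23 to 26 were called higher with all libraries and 16 to 25 with each library left out. Over all genes, 339 to 1212 were higher and 568 to 1470 lower with a library left out, and 2342 higher and 2384 lower with the replicate block. The labels do not say that replicate numbers pair the libraries. Deviations of same-numbered libraries correlated at 0.464 across genes, and the block added Mpeg1 to the macrophage genes called. The resident-type median was 1.65 with quantile normalization and 1.47 to 1.58 with a library left out. The monocyte-type median was 0.97 with edgeR, 0.97 with DESeq2, 0.96 and 0.73 with pseudocounts of 0.1 and 1, and 0.33 with no filter and with a filter at 5 CPM, where different numbers of its genes are tested.

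With a library left out, log2 fold changes ran from -0.030 to 0.16 for Cd14 and from -0.012 to 0.18 for Csf1, the growth factor gene. Relative to shared markers, the number of genes higher was 5 with the leukocyte-wide denominator, 0 with Csf1r, 0 with the median, 2 with the replicate block and 0 to 2 with a library left out, and 3 to 4 were lower. With Csf1r as the denominator the sign turned for Fcgr2b (-0.015), Fcgr3 (-0.19), Mrc1 (-0.069), Cd163 (-0.17), Folr2 (-0.25), Clec4n (-0.29), Msr1 (-0.31) and Laptm5 (-0.13), and with the median for Folr2 (-0.049), Clec4n (-0.093) and Msr1 (-0.11). Fcgr1 was at 0.11 with the leukocyte-wide denominator and Clec4n at -0.087 with a pseudocount of 1. Left-out libraries gave -0.29 to 0.089 for Fcgr1, -0.18 to 0.32 for Clec4n and -0.15 to 0.061 for Cd53. None of these turned signs passed, and the cause was not tested. Depth limits Arg1, Cx3cr1, Trem2, Aif1 and Cd52, which rest on few reads.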
